A study of Mus musculus with 10 samples.

Results

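Alveolar macrophages were present in all 10 single-cell RNA libraries, which had been sorted from mouse distal lung for epithelial cells. They were chosen by their transcripts. Of 32698 barcodes that passed the filters (at least 1000 genes, at most 50000 unique molecular identifiers or UMIs, and at most 15% mitochondrial UMIs), 1454 (4.45%) held at least 4 of the 6 genes Chil3, Ear2, Atp6v0d2, Fabp1, Ccl6 and Ltc4s and fewer than 2 of the 3 complement genes C1qa, C1qb and C1qc. The genes of this rule are described below without a test.

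The study traced alveolar type 2 (AT2) cells, the surfactant-secreting stem cells of the alveolus, in adult mice of both sexes. All mice carried Sftpc-CreERT2, in which the surfactant protein C promoter drives a tamoxifen-inducible Cre in AT2 cells, and all received 3 doses of tamoxifen at 0.2 mg per gram body weight. Sftpc-CreERT2; R26R-Confetti mice served as controls with fluorescent labels alone and gave 1 RFP and 1 YFP library, which the methods place at 2 weeks. Sftpc-CreERT2; Red2Kras mice, in which RFP+ AT2 cells are mutant and YFP+ AT2 cells are wildtype, gave 2 RFP and 2 YFP libraries at 4 days and again at 2 weeks after induction. The lungs of several animals were pooled for a library, and the gate took EpCAM+ singlets before splitting them by colour. Macrophages lie outside the Sftpc lineage, so the colour of a library gave no genotype to the macrophages in it. All 10 libraries were titled as of 1 experiment. Confetti had a single replicate number, and the methods count a single Confetti sample. RFP and YFP libraries of a condition may therefore come from the same lungs, and the spread between libraries may understate that between animals.

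Alveolar macrophages live on the air side of the alveolus. They are seeded around birth from fetal monocytes, depend on GM-CSF and on the nuclear receptor PPARγ, and renew themselves locally. They take up and break down surfactant, clear inhaled particles, and differ from the C1q-expressing interstitial macrophages of the lung tissue in surface receptors and lipid metabolism.

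Before levels are compared, 3 features of the libraries need stating. The replicate 2 libraries of 2 weeks (RFP and YFP) held 1123 of the 1454 alveolar macrophages (77.2%), and the shares and gene calls are also given without them. Macrophages with Xist and no Y-linked UMI made up 100% of those that could be sexed in both Confetti libraries and 0% in all 4 replicate 2 libraries of Red2Kras, while the replicate 1 libraries held both sexes. Across the series, 239 barcode sequences occurred in 2 or more libraries, at most 17 in any pair of libraries, and none of them (0) belonged to an alveolar macrophage. Summed UMIs of these macrophages ranged from 78151 to 7847915 per library, and the median per cell from 4561 to 13630.

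Of the filtered barcodes, 29275 held none of the 6 genes, 1601 held 1, 274 held 2 and 61 held 3. A further 63 held 4, 271 held 5 and 1153 held all 6. Just inside the threshold, 51 macrophages held exactly 4 genes, and 84.3% of them had a UMI of Ptprc, which encodes the leukocyte antigen CD45. Just outside, 30 barcodes held exactly 3 genes without C1q, and 73.3% of them had Ptprc. The complement criterion left out 33 barcodes with 4 or more of the 6 genes, and 30 of the macrophages kept held 1 C1q gene.

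The label alveolar macrophage could be checked on genes outside the rule. Ptprc was detected in 92.3% of the 1454 cells, the lysosomal protein gene Cd68 in 95.5%, and the mannose receptor gene Mrc1 in 96.1%. Car4, which encodes a carbonic anhydrase typical of alveolar macrophages, was detected in 93.7%, the integrin gene Itgax in 83.1%, the scavenger receptor gene Marco in 62.4%, Pparg in 51.9% and Siglecf, the sialic acid-binding lectin used to sort these cells, in 48.7%. Pecam1 of endothelium and Foxj1 of ciliated cells were each found in 6 cells (0.413%), Col1a1 of fibroblasts in 1 cell, and the T cell gene Cd3e in none (0). S100a8, a calcium-binding protein gene abundant in neutrophils, had UMIs in 333 cells (22.9%, 6.67% to 37.8% by library) against at most 1.33% of epithelial barcodes, while the neutrophil genes Ly6g and Ngp were at 0 in every library. The part of neutrophil RNA in the results was not tested. The label and these markers gave the same identity, and the cells are called alveolar macrophages below.

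Levels are given as CPM, which scales the summed UMIs of the alveolar macrophages to a common library size, adjusted by TMM normalisation factors. As a mean over the 9 libraries with at least 20 alveolar macrophages, Chil3, which encodes a chitinase-like secreted protein, reached 12895 CPM in alveolar macrophages, 1.5 CPM in epithelial barcodes and 559 CPM in C1q-positive macrophages. Ccl6, a chemokine, stood at 7977 CPM, 1.27 CPM and 1959 CPM in the same order, and Fabp1, a fatty acid-binding protein, at 1202 CPM, 0.0987 CPM and 53.1 CPM. These genes chose the cells. Among genes the rule did not name, Car4 stood at 1388 CPM against 0.741 CPM in epithelial barcodes and 32.2 CPM in C1q-positive macrophages, and Marco at 418 CPM against 0.0414 CPM and 6.48 CPM. Krt79, a keratin gene transcribed in alveolar macrophages, was at 286 CPM against 1.73 CPM and 19.0 CPM, and Il18, an interleukin-1 family cytokine, at 566 CPM against 1.33 CPM and 65.9 CPM. All of these were higher in the alveolar macrophages than in both other classes. Genes of the C1q-positive macrophages went the other way. The chemokine gene Ccl8 was at 0.229 CPM in alveolar and 1357 CPM in C1q-positive macrophages, Ccl12 at 1.44 CPM and 506 CPM, the lectin gene Mgl2 at 2.18 CPM and 617 CPM, and Aif1, which encodes a macrophage calcium-binding protein, at 2.34 CPM and 464 CPM. Because the classes were cut from the same cells, none of these differences was tested.

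**Figure D1:**
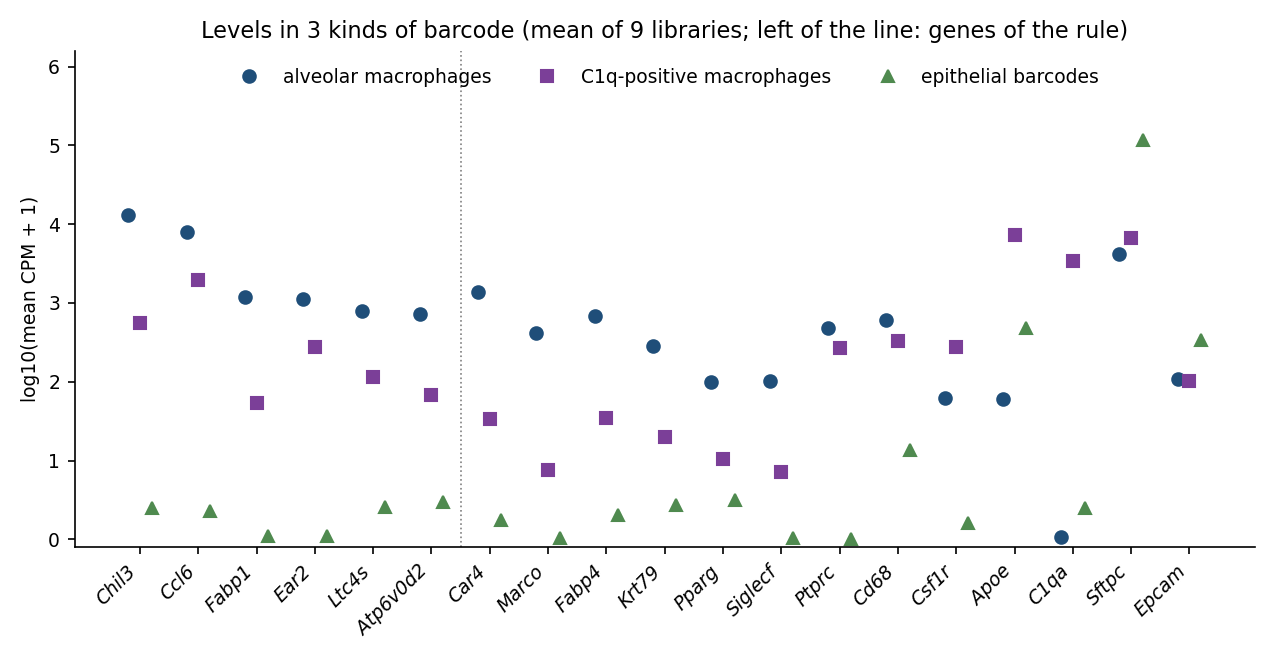
Mean level over the 9 libraries with at least 20 alveolar macrophages, as log10(CPM + 1), of genes in alveolar macrophages, C1q-positive macrophages and epithelial barcodes. On the vertical axis, Chil3 (12895, 559 and 1.5 CPM) and Car4 (1388, 32.2 and 0.741 CPM) stand highest in the alveolar macrophages and lowest in the epithelial barcodes, whereas C1qa is high in the C1q-positive macrophages (3434 CPM) and near 0 in the other kinds of barcode.

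Transcripts of epithelial cells were also present in these droplets. Sftpc, the surfactant protein gene that AT2 cells transcribe at very high levels, had a UMI in 68.8% of the alveolar macrophages, and its level was between 0.208% and 9.50% of that in epithelial barcodes of the same library, with a median of 3.86%. The tight junction gene Cldn18 was at 0% to 13.8% of the epithelial level (median 4.83%), and the phosphate transporter gene Slc34a2 at 0% to 15.2% (median 6.60%). At least 2 of the 5 genes Epcam, Cldn18, Slc34a2, Krt18 and Nkx2-1 were found in 16.2% and 22.5% of the macrophages of the Confetti libraries and in 2.00% to 22.7% of those of the Red2Kras libraries. Scgb1a1, the secretoglobin gene of club cells, was at 3204 CPM in the 2 weeks RFP replicate 2 library, where epithelial barcodes had 2218 CPM, and between 39.4 and 371 CPM in the other libraries. As a mean over the 9 fitted libraries, Scgb1a1 was at 37071 CPM in C1q-positive macrophages. The same mean was 7420 CPM in epithelial barcodes and 473 CPM in alveolar macrophages. Levels given for the C1q-positive class are thus not of macrophage RNA alone.

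Epcam, the target of the antibody in the gate, was present at a larger fraction of its epithelial level than most epithelial genes. It lay between 4.85% and 90.5% of the epithelial level (median 27.1%), and this ratio was above those of Cldn18, Slc34a2, Krt18 and Sftpc in 10 of 10 libraries, above that of Krt8 in 9, above those of Nkx2-1 and Abca3 in 8 each, and above that of Cdh1 in 3. Among 1240 macrophages with no UMI of the other 4 epithelial genes, 354 (28.5%) had an Epcam UMI, and among 214 with any of them, 118 (55.1%) did. Cdh1, the E-cadherin gene, followed the same pattern with 11.9% to 114% of the epithelial level (median 60.2%), while the transporter gene Abca3 had a median of 10.7%. The part of the EpCAM gate in these levels was not tested.

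**Figure D2:**
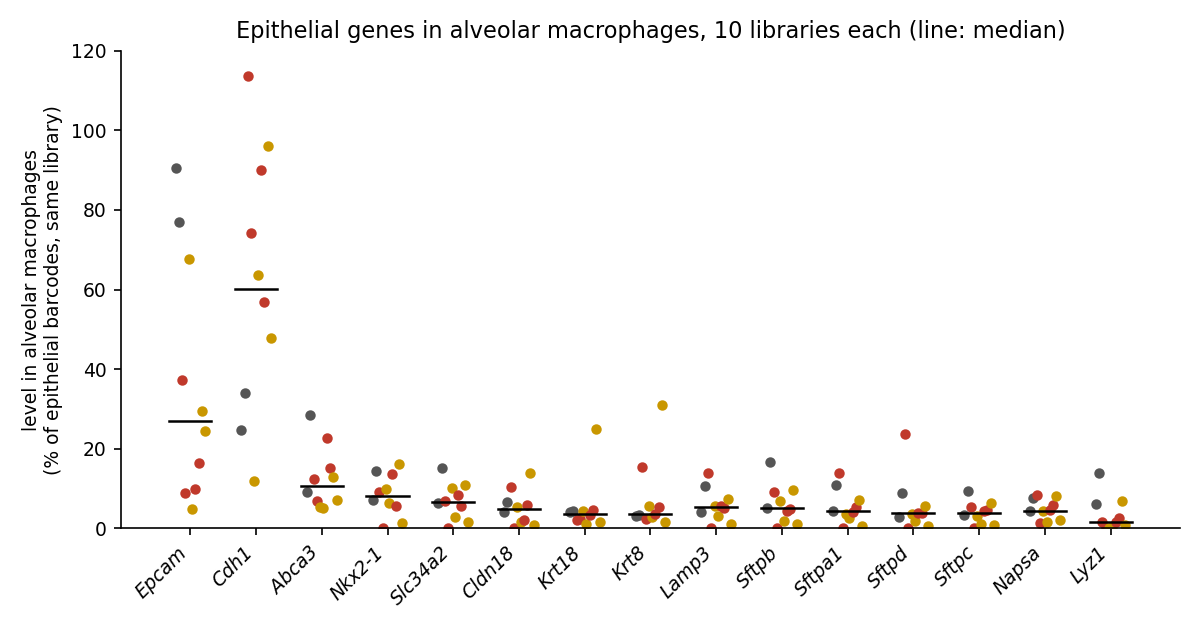
Level of epithelial genes in alveolar macrophages as a percentage of their level in epithelial barcodes of the same library, with a point for each of 10 libraries. Epcam and Cdh1 lie above Sftpc, Cldn18 and Krt18, with medians of 27.1% and 60.2% against 3.86%, 4.83% and 3.74%.

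The question of how many alveolar macrophages accompanied the sorted cells was answered by their share of filtered barcodes. In Confetti they made up 0.93% of the RFP library (37 cells, exact 95% binomial interval 0.655% to 1.28%) and 0.958% of the YFP library (40 cells, 0.685% to 1.30%). At 4 days the shares were 0.391% and 2.88% in the RFP libraries (15 and 50 cells) and 1.25% and 1.49% in the YFP libraries (24 and 46 cells). At 2 weeks they were 1.04% and 14.9% in the RFP libraries (44 and 527 cells) and 1.69% and 34.1% in the YFP libraries (75 and 596 cells). Both replicate 2 libraries of 2 weeks stood above all others, and the remaining 8 lay between 0.391% and 2.88%, with Confetti inside the range of Red2Kras. A sort followed by droplet loading sets this share, so it is no count of macrophages in the lung.

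The share averaged 7.23% ± 11.9 (SD, n = 8) in Red2Kras and 0.944% ± 0.0198 (SD, n = 2) in Confetti, a difference of 6.28 percentage points (two-sided exact permutation test, p = 0.3333, adjusted p = 0.5 over 3 tests, smallest p possible 0.0222). It averaged 12.9% ± 15.5 (SD, n = 4) at 2 weeks and 1.5% ± 1.03 (SD, n = 4) at 4 days, a difference of 11.4 points (exact permutation test, p = 0.2571, adjusted p = 0.5, smallest p possible 0.0286). RFP libraries averaged 4.04% ± 6.17 and YFP libraries 7.90% ± 14.7 (SD, n = 5 each; exact permutation test, p = 0.7143). None of the 3 differences was larger than the spread between libraries. Without both replicate 2 libraries of 2 weeks, the differences were 0.513 points for Red2Kras against Confetti, -0.0377 points for RFP against YFP and -0.142 points for 2 weeks against 4 days, the last with its direction turned (adjusted p = 0.971 for all 3, exact permutation test).

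**Figure D3:**
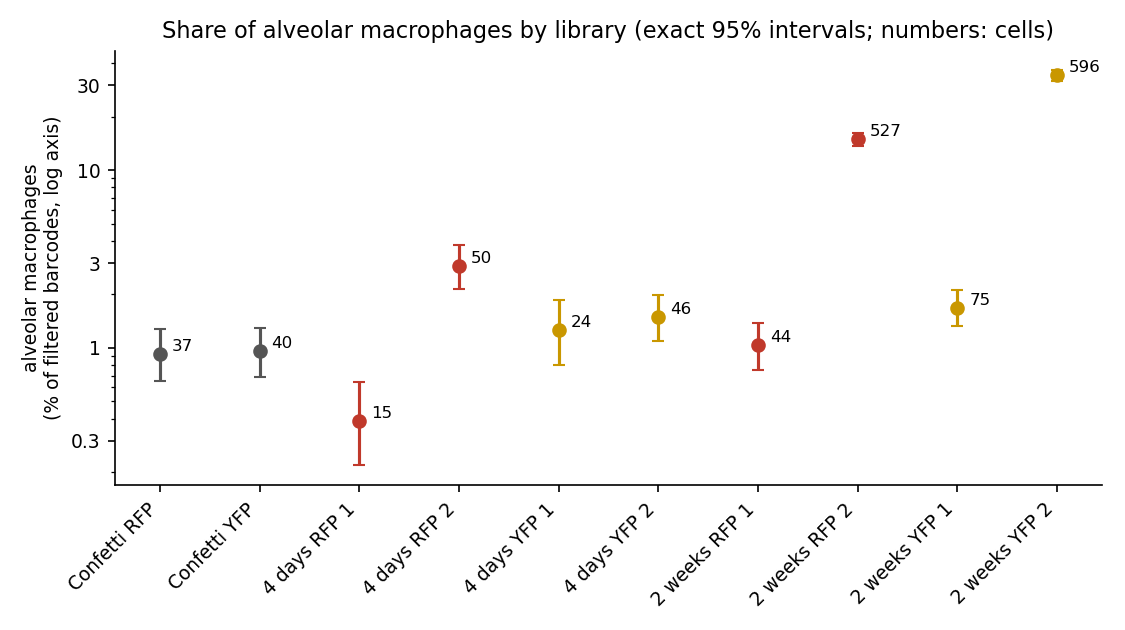
Alveolar macrophages as a percentage of filtered barcodes in each of the 10 libraries, on a log axis, with exact 95% binomial intervals. The replicate 2 libraries of 2 weeks stand at 14.9% (RFP) and 34.1% (YFP), and all others lie at or below 2.88%.

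The C1q-positive macrophages of the same libraries numbered 15 and 8 barcodes in Confetti, between 3 and 70 at 4 days, and 37, 83, 29 and 43 at 2 weeks (RFP replicates 1 and 2, then YFP replicates 1 and 2). Per 100 alveolar macrophages this was 40.5 and 20 in Confetti and 15.7 and 7.21 in the replicate 2 libraries of 2 weeks, against 84.1 and 38.7 in the replicate 1 libraries of that time. At 4 days the replicate 2 libraries had 140 (RFP) and 104 (YFP) per 100, the highest of the series.

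To ask which genes of alveolar macrophages differed between Red2Kras and Confetti, UMIs were summed per library and compared with edgeR's quasi-likelihood test with Benjamini-Hochberg adjustment. The 4 days RFP replicate 1 library, with 15 macrophages, was left out of the fits, and its values are given but enter no mean. Of 4805 genes tested outside the rule, 11 (0.229%) passed an adjusted p of 0.05 in Red2Kras against Confetti, 4 higher (0.0832%) and 7 lower (0.146%), and 18 (0.375%) passed in 2 weeks against Confetti, 10 higher (0.208%) and 8 lower (0.166%). At 4 days against Confetti no gene passed (0%). An unadjusted p under 0.05 was reached by 511 genes (10.6%), 617 genes (12.8%) and 397 genes (8.26%) in these comparisons, and DESeq2 called 7 genes at 4 days. With the replicate number as a block, 97, 190 and 15 genes passed, but the labels do not say that a number marks shared lungs. The comparisons share the Confetti libraries, and without either of them (1 Confetti library left) 0 genes passed in the first and second comparison. Without the 4 days YFP replicate 2 library 0 genes passed over all Red2Kras, and without the 4 days YFP replicate 1 library 66 did. Genes outside the rule for named genes were picked after their values were seen, and they comprise Sema4b, Tns1, Apoc1, Anxa1, Spint1, Gsn, Ola1 and Gm47283 below.

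Crip1, one of the genes that fell, encodes a small LIM-domain protein (chromosome 12, GRCm38, 113146316 to 113153879, plus strand). It stood at 4690 and 4718 CPM in the Confetti RFP and YFP libraries. At 4 days it was at 979 and 632 CPM in RFP and 1607 and 624 CPM in YFP libraries, and at 2 weeks at 652 and 268 CPM in RFP and 1551 and 571 CPM in YFP libraries (replicates 1 and 2). All Red2Kras libraries lay below both Confetti libraries. The mean was 4704 ± 19.7 CPM (SD, n = 2) in Confetti and 843 ± 519 CPM (SD, n = 7) in Red2Kras, which edgeR put at -2.67 on the log2 scale (SE 0.40, adjusted p = 0.011). In 2 weeks against Confetti it was -2.80 (SE 0.46, adjusted p = 0.027). C1q-positive macrophages held Crip1 at a mean of 4737 CPM and epithelial barcodes at 470 CPM.

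Krt79 was the only one of 27 tested genes of the alveolar macrophage identity list to pass. It passed only at 2 weeks, where 0.166% of all genes were called lower. It was at 682 and 527 CPM in Confetti, at 357, 197, 462 and 160 CPM at 4 days (RFP replicates 1 and 2, then YFP replicates 1 and 2), and at 155, 159, 109 and 123 CPM at 2 weeks in the same order. The 2 weeks libraries lay below all others. On the log2 scale Krt79 differed from Confetti by -2.14 (SE 0.36, adjusted p = 0.027, edgeR) at 2 weeks and by -1.64 (adjusted p = 0.073) over all Red2Kras. Krt79 was almost absent from epithelial barcodes (1.73 CPM).

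Among the genes that fell, Phlda3, a p53 target that restrains Akt, was at 192 and 118 CPM in Confetti and between 44.5 and 60.7 CPM in all 8 Red2Kras libraries (log2 -1.55, SE 0.28, adjusted p = 0.041, edgeR). Tns1, which encodes the focal adhesion protein tensin, was at 157 and 167 CPM in Confetti and between 39.9 and 71.9 CPM in Red2Kras (log2 -1.54, SE 0.28, adjusted p = 0.041). Sema4b, a transmembrane semaphorin gene, was at 70.7 and 113 CPM in Confetti and between 11.8 and 24.0 CPM in the 7 Red2Kras libraries of the fit (log2 -2.59, SE 0.41, adjusted p = 0.015). For these genes the fitted libraries of the conditions did not overlap, as was so for 6.29% of all genes that were lower and 7.08% that were higher in Red2Kras (13.3% and 14.9% for 2 weeks alone). The library left out of the fit had 92.6 CPM of Sema4b, inside the Confetti range.

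A further 3 genes that were lower are also found in the epithelium or on a sex chromosome. Lyz1, a lysozyme gene expressed by AT2 cells, was at 298 and 576 CPM in Confetti and at 52.9, 0, 0 and 3.6 CPM at 4 days and 26.2, 9.1, 142 and 8.5 CPM at 2 weeks (log2 -6.17, SE 0.87, adjusted p = 0.011, edgeR). Epithelial barcodes held 4757 and 4128 CPM of it in Confetti and between 361 and 3474 CPM in Red2Kras, so the epithelial level was also lower. Apoc1, an apolipoprotein gene, was at 172 and 199 CPM in Confetti and between 4.5 and 70.0 CPM in Red2Kras (log2 -3.30, SE 0.57, adjusted p = 0.031), beside 138 to 1472 CPM in epithelial barcodes. Gm47283, a gene placed on chromosome Y (90784738 to 90816464, plus strand), was at 435 and 888 CPM in Confetti and between 21.4 and 161 CPM in Red2Kras (log2 -2.86, SE 0.41, adjusted p = 0.011). Although placed on chromosome Y, it had UMIs in the all-female Confetti libraries, and epithelial barcodes had it at 348 and 694 CPM in Confetti and between 38.5 and 281 CPM in Red2Kras. The part of epithelial RNA in these 3 differences was not tested.

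Among the genes that rose, Msr1 was nearly absent from Confetti. It encodes the class A scavenger receptor for modified lipoproteins and bacteria. It had a single UMI in Confetti, in the RFP library (5.1 CPM), and 0 CPM in the YFP library. At 4 days it was at 26.5 and 125 CPM in RFP and 24.0 and 112 CPM in YFP libraries, and at 2 weeks at 102 and 86.8 CPM in RFP and 59.0 and 105 CPM in YFP libraries. Every Red2Kras library was above both Confetti libraries. The Red2Kras mean was 33.7 times the pooled Confetti level, with an exact 95% counting interval of 6.05 to 1331 that reflects the single UMI (log2 5.11, SE 0.94, adjusted p = 0.042, edgeR). Msr1 was almost absent from epithelial barcodes (0.0453 CPM) and present in C1q-positive macrophages (51.5 CPM). Spint1, a membrane serine protease inhibitor gene, was at 15.2 and 16.1 CPM in Confetti and between 63.4 and 87.4 CPM in the 7 fitted Red2Kras libraries (log2 2.25, SE 0.42, adjusted p = 0.042), but at 13.2 CPM in the library left out. Over all Red2Kras, Msr1 passed in 9 and Spint1 in 7 of 20 alternatives, and DESeq2 gave adjusted p of 0.064 and 0.093. Without macrophages holding 2 epithelial genes, the adjusted p (edgeR) was 0.024 for Msr1 and 0.057 for Spint1.

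At 2 weeks, a chemokine gene was among those that passed. Ccl17, a ligand of Ccr4 that attracts T cells, had 0 CPM in both Confetti libraries and in both replicate 1 libraries of 4 days. It was at 80.7 (RFP) and 32.7 (YFP) CPM in the replicate 2 libraries of 4 days and at 128, 97.5, 85.3 and 70.5 CPM at 2 weeks. The 2 weeks level was at least 12.2-fold higher than Confetti, taking 3 UMIs over the group as the limit for a count of 0 (adjusted p = 0.030, edgeR).

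Anxa1, which encodes the phospholipid-binding protein annexin A1, was at 253 and 151 CPM in Confetti, at 397, 453, 372 and 327 CPM at 4 days and at 686, 793, 492 and 485 CPM at 2 weeks. The conditions did not overlap, and 2 weeks lay highest (log2 1.62 against Confetti, SE 0.29, adjusted p = 0.027, edgeR). Epithelial barcodes held it at 84.8 to 1152 CPM. Olfm1, an olfactomedin gene, was at 10.1 and 16.1 CPM in Confetti and at 81.2, 89.8, 63.4 and 64.7 CPM at 2 weeks (log2 2.51, SE 0.48, adjusted p = 0.033). Gsn, the actin-severing protein gelsolin, and Ola1, an ATPase of the Obg family, passed as well, with log2 fold changes of 2.00 and 2.47 (adjusted p = 0.037 for both).

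**Figure D4:**
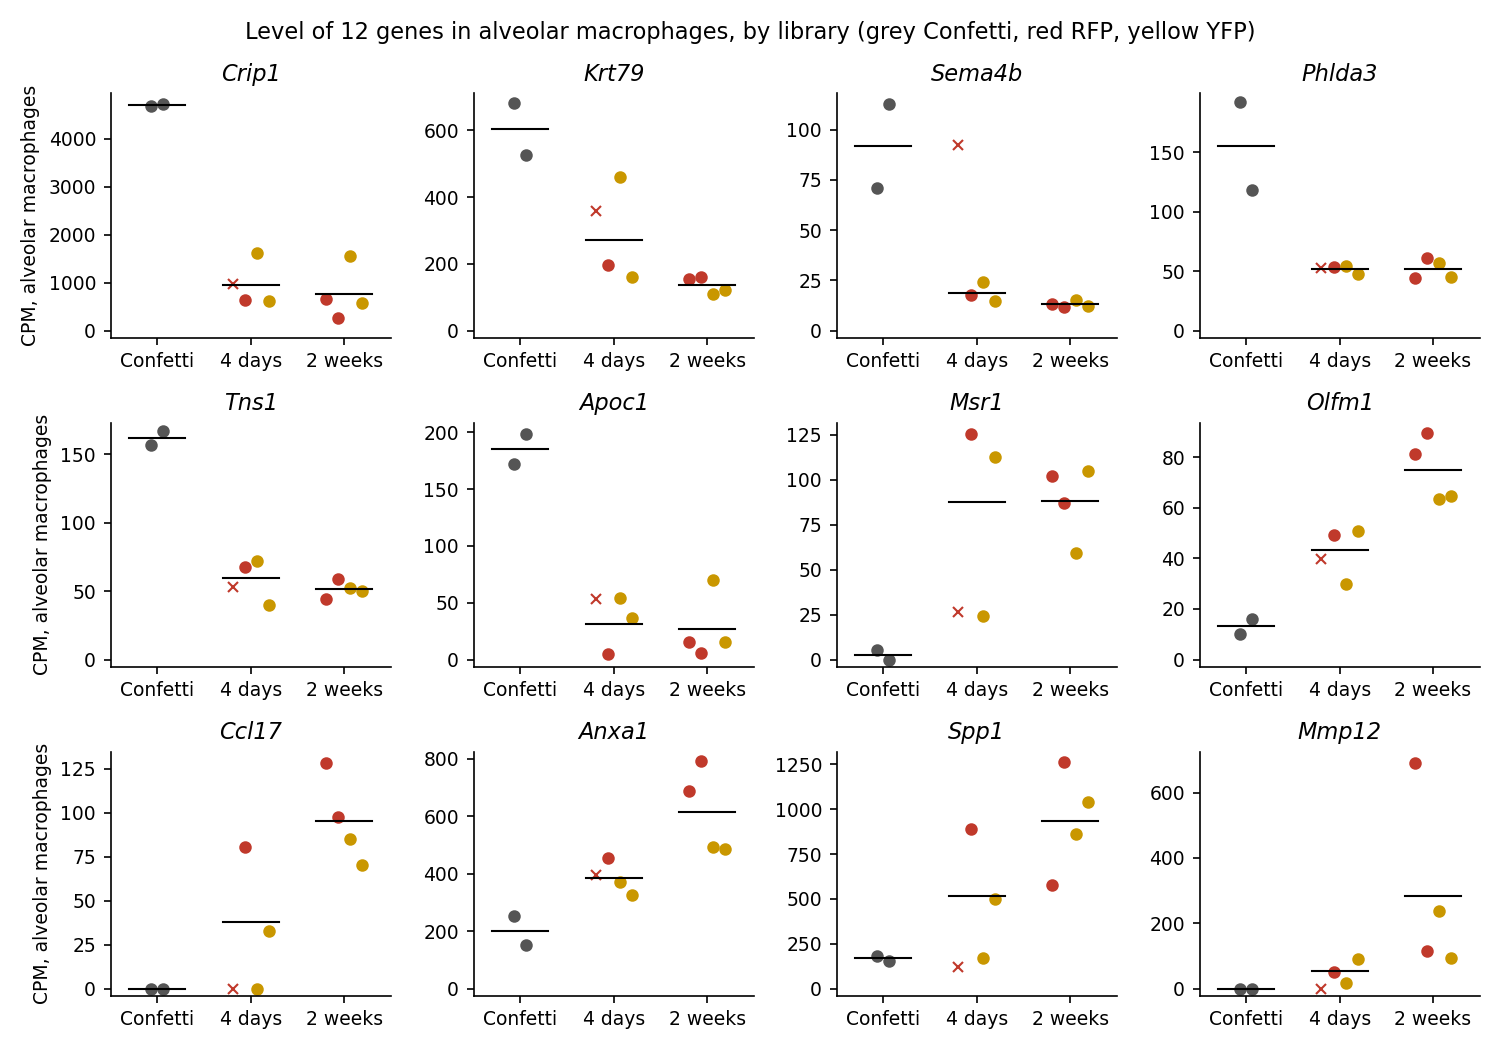
Level in CPM of 12 genes in the alveolar macrophages of each library, by condition, with the group mean as a line and the 15-cell library that entered no fit or mean as a cross. Crip1 and Krt79 lie highest in the Confetti libraries, whereas Msr1 and Ccl17 lie at or near 0 there.

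Mmp12 and Spp1, which are linked to macrophages of tumours, varied widely between libraries. Mmp12, macrophage elastase, had 0 CPM in both Confetti libraries, 0, 49.3, 18.0 and 90.7 CPM at 4 days and 692, 114, 236 and 94.2 CPM at 2 weeks. All 4 libraries of 2 weeks were above Confetti and differed widely among themselves, and the test missed the threshold (adjusted p = 0.051, edgeR). For 2 weeks against Confetti, Mmp12 passed in 12 of 20 alternatives and Spp1 in 7. Spp1, which encodes the secreted phosphoprotein osteopontin, was at 182 and 156 CPM in Confetti, 119, 887, 168 and 501 CPM at 4 days and 576, 1265, 860 and 1041 CPM at 2 weeks (log2 2.5, SE 0.52, adjusted p = 0.053). In both, the replicate 1 libraries of 4 days were lower than the replicate 2 libraries of that time. C1q-positive macrophages held Mmp12 at 1003 CPM, Spp1 at 1199 CPM and Ccl17 at 612 CPM, beside means over the 9 fitted libraries of 144, 626 and 55.0 CPM in alveolar macrophages. For Spp1 the replicate 2 libraries of 2 weeks reached or came near the C1q-positive level. Ccl8, Ccl12, Mgl2 and Aif1 of those cells were near 0 in the alveolar macrophages, as given above. Spp1 was also found in epithelial barcodes, in 0.105% and 0.153% of them in Confetti. At 2 weeks it was in 36.0% and 33.0% of epithelial barcodes of the RFP libraries. In the YFP libraries of 2 weeks it was in 0.450% and 3.73%. The part of epithelial RNA in the Spp1 levels was not tested.

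Of the 15 tested genes of the tumour-associated and alternatively activated list, 1 (Msr1) was higher and 0 lower in Red2Kras. Over all genes, 0.0832% were called higher and 0.146% lower. The median log2 fold change of the 15 genes was 0.42, beside 0.02 over all genes. Of 17 phagocytosis and scavenger receptor genes, Msr1 was again the only call, and the median was 0.13. Mrc1 was steady, at 728 and 576 CPM in Confetti and between 529 and 849 CPM in Red2Kras (log2 0.13, adjusted p = 0.87, edgeR).

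The genes that mark alveolar macrophages mostly did not pass. Of the 27 in the identity list, 12 had positive and 15 negative log2 fold changes in Red2Kras against Confetti, with a median of -0.12. Car4 was at 571 and 484 CPM in Confetti and at 1925, 1827, 1542 and 1514 CPM at 2 weeks. At 4 days it was at 331 and 647 CPM in the replicate 1 libraries and at 2272 and 1705 CPM in the replicate 2 libraries (RFP, then YFP). The 2 weeks libraries lay above both Confetti libraries (log2 1.69, adjusted p = 0.071, edgeR), as did the 3 fitted libraries of 4 days, and the 15-cell library lay below. Marco spanned 140 to 334 CPM in Confetti and 132 to 1006 CPM in Red2Kras, Siglecf 70.7 to 186 CPM and Pparg 72.6 to 156 CPM over all libraries. Fabp4, a fatty acid-binding protein under PPARγ, was at 1703 and 839 CPM in Confetti and between 302 and 1013 CPM in Red2Kras, and these ranges overlapped.

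Surfactant and lipid handling genes gave no call among 24 tested, 9 positive and 15 negative, with a median log2 fold change of -0.49, and 10 of them were lower at an unadjusted p under 0.05 (background 5.35% of all genes). In the same comparison the list of AT2 surfactant and epithelial genes had 16 of 20 negative, with a median of -1.41. Of that list, 10 were lower at an unadjusted p under 0.05 and 1 was called (Lyz1), beside 0.146% of all genes called lower. The part of epithelial RNA in the lipid genes was not tested. Lipoprotein lipase (Lpl) was at 2572 and 2318 CPM in Confetti and between 986 and 2182 CPM in Red2Kras, so that the groups did not overlap (log2 -0.84, adjusted p = 0.29, edgeR). The desaturase gene Scd1 was at 475 and 694 CPM in Confetti and between 17.9 and 674 CPM in Red2Kras (adjusted p = 0.31). Receptors for growth factors, among them those for GM-CSF, gave no call among 13, with a median of 0.16. Csf2rb, the shared beta chain of the GM-CSF receptor, spanned 231 to 248 CPM in Confetti and 216 to 337 CPM in Red2Kras.

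Signalling through Il1r1, the receptor for Il1a and Il1b, was one of the study's questions. Il1b, the secreted ligand, was at 75.8 and 69.9 CPM in Confetti, at 26.5, 453, 24.0 and 218 CPM at 4 days and at 472, 211, 451 and 216 CPM at 2 weeks. The 2 weeks libraries were all above Confetti, yet the spread left it short of the threshold (log2 2.23, adjusted p = 0.245, edgeR). The replicate 1 libraries of 4 days were below Confetti. Il1a was at 65.7 and 69.9 CPM in Confetti and between 26.5 and 255 CPM in Red2Kras, and the receptor antagonist gene Il1rn at 85.9 and 80.7 CPM and between 106 and 336 CPM. The receptor gene Il1r1 had UMIs in 0% to 6.67% of the macrophages of a library (median 1.09%), below the 4.57% to 15.6% of epithelial barcodes in each of the 10 libraries. C1q-positive macrophages held Il1b at 1855 CPM. Of 18 tested genes of the interleukin-1 and NF-κB list, none (0) passed in either direction, with 14 positive and a median of 0.45.

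Chemokine genes gave 1 call at 2 weeks (Ccl17) among 8 tested, beside 0.208% of all genes called higher. Over all Red2Kras they gave none (0). Cxcl2, which attracts neutrophils, was at 556 and 151 CPM in Confetti and between 291 and 1360.3 CPM in Red2Kras (log2 1.66, adjusted p = 0.23, edgeR). Interferon response genes were all positive (8 of 8) with a median log2 fold change of 1.01, 4 of them at an unadjusted p under 0.05 (background 5.29%) and 0 past the adjusted threshold. Bst2, the antiviral tetherin, was at 91.0 and 53.8 CPM in Confetti and at 170, 257, 219 and 308 CPM at 2 weeks (adjusted p = 0.14). MHC class II genes (8 tested, median 0.16) and lysosomal genes (20 tested, 18 positive, median 0.30) gave no call. Areg, an EGF receptor ligand of interest in transitional epithelium, was found in 0% to 19.2% of the macrophages of a library (median 6.04%), at 10.1 and 10.8 CPM in Confetti and 23.6, 194, 177 and 19.9 CPM at 2 weeks, beside 449 CPM in epithelial barcodes.

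Cycling was described as the share of macrophages with UMIs of at least 3 of 8 proliferation genes (Mki67, Top2a, Cenpf, Birc5, Ube2c, Cdk1, Pclaf and Stmn1). It was 2.70% and 2.5% in Confetti. At 4 days it was 0% and 20% in the RFP libraries and 4.17% and 34.8% in the YFP libraries, and at 2 weeks 18.2% and 19.0% in RFP and 21.3% and 13.6% in YFP libraries (replicates 1 and 2). The replicate 1 libraries of 4 days were with Confetti, and all other Red2Kras libraries were above 13%. After each cell was thinned to 3000 UMIs, Confetti had 2.78% and 2.63%, the 4 days libraries 0%, 21.3%, 4.17% and 31.8%, and the 2 weeks libraries 9.09%, 11.6%, 13.5% and 10.6% (RFP replicates 1 and 2, then YFP). Thinning lowered the shares at 2 weeks, so that all 4 libraries of that time then lay below both replicate 2 libraries of 4 days. No order between the times is read from these shares.

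All 18 tested S phase and mitosis genes had positive log2 fold changes in Red2Kras against Confetti, with a median of 1.45 beside 0.02 over all genes. At an unadjusted p under 0.05, 7 were higher (background 5.29%), and 0 passed the adjusted threshold. Pclaf, a PCNA-associated factor of S phase, was at 45.5 and 5.4 CPM in Confetti, at 0 and 6.0 CPM in the replicate 1 libraries of 4 days, and between 123 and 334 CPM in the remaining 6 (log2 2.57, adjusted p = 0.30, edgeR). Ube2c, a mitotic ubiquitin-conjugating enzyme, was at 30.3 and 26.9 CPM in Confetti, 0 and 30 CPM in the same replicate 1 libraries, and between 55.0 and 210 CPM in the rest. For both genes, the Confetti and the replicate 1 libraries of 4 days formed the low end.

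**Figure D5:**
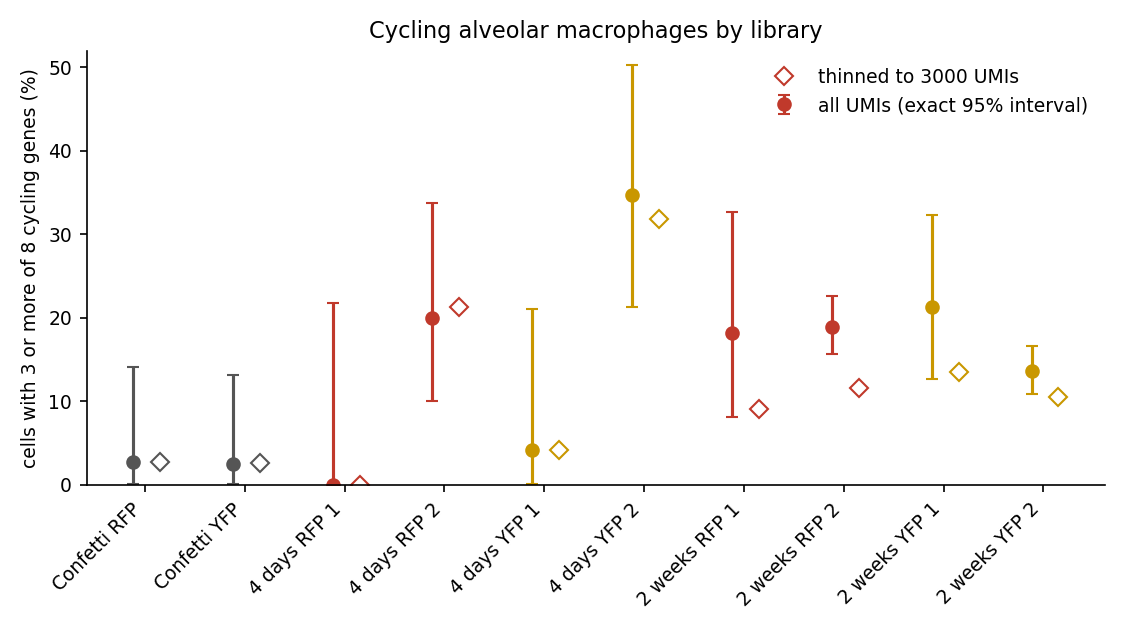
Percentage of alveolar macrophages with at least 3 of 8 proliferation genes in each library, with all UMIs and after thinning to 3000 UMIs per cell. Confetti and the 4 days replicate 1 libraries lie at or below 4.17%, and all other libraries lie at or above 9.09% even after thinning.

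The time points were compared directly within Red2Kras. No gene passed in 2 weeks against 4 days (0%, edgeR), with 269 genes (5.6%) at an unadjusted p under 0.05 and 2 called by DESeq2. Calls appeared under other settings, with 8 genes (7 higher, 1 lower) when RFP and YFP libraries of a replicate number were summed and 23 with the replicate number as a block. There were 7 without both replicate 2 libraries of 2 weeks, and 19 without the YFP one alone. The smallest adjusted p was that of Tnf, the inflammatory cytokine. It was at 39.7, 255, 83.9 and 87.1 CPM at 4 days and at 26.2, 26.4, 43.7 and 29.5 CPM at 2 weeks, with 60.6 and 48.4 CPM in Confetti. Among the 7 libraries of the fit, the times did not overlap, as for 2.77% of all genes in this direction (log2 -2.21, adjusted p = 0.117). The only overlap was with the 15-cell library. In the list of epithelial surfactant genes, 20 of 20 were positive in this comparison, with a median of 1.22 against 0.01 over all genes, and the 4 days RFP replicate 2 library had the lowest summed level of that list (417 CPM against up to 19483 CPM elsewhere).

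The colours gave no call. RFP against YFP libraries gave 0 calls (0%) with edgeR and 0 with DESeq2, with 98 genes (2.04%) at an unadjusted p under 0.05.

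Sex and genotype cannot be told apart in the comparison with Confetti. The methods state that the libraries were made over 2 days, and the sample titles do not say on which day each was made. The part of that day in the differences was not tested. The Y-linked genes Ddx3y and Eif2s3y, with 0 CPM in Confetti, were 2 of the 4 genes higher in Red2Kras. The replicate 1 libraries held both sexes, and their values are given by sex as a description (RFP and YFP cells pooled, CPM without TMM factors, exact 95% intervals that cover counting error only). At 2 weeks, Crip1 was at 679 CPM (563 to 812) in 30 female macrophages and at 1349 CPM (1240 to 1466) in 50 male ones. At 4 days it was at 1977 CPM (1735 to 2243) in 18 female and at 552 CPM (401 to 741) in 13 male macrophages. The order of the sexes thus differed between the times, and all 4 values were below the Confetti libraries.

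In female macrophages, Krt79 was at 321 CPM (228 to 439) at 4 days and at 119 CPM (73.6 to 182) at 2 weeks. Phlda3 was at 82.4 CPM (39.5 to 151) and 50.9 CPM (23.3 to 96.7), and Sema4b at 65.9 CPM (28.4 to 130) and 22.6 CPM (6.17 to 58.0), in the same order. The 4 days intervals of Phlda3 and Sema4b reached the Confetti levels, and those of 2 weeks did not. Msr1 was at 24.7 CPM (5.10 to 72.2) at 4 days and at 102 CPM (60.4 to 161) at 2 weeks. Ccl17 had no UMI at 4 days (0 CPM, up to 30.4) and was at 153 CPM (101 to 222) at 2 weeks. Anxa1 was at 321 CPM (228 to 439) and 504 CPM (404 to 620). At 4 days the intervals of Ccl17 and Anxa1 reached Confetti levels, and that of Msr1 began at the level of the Confetti RFP library. Spint1 was at 41.2 CPM (13.4 to 96.1) at 4 days and at 34.0 CPM (12.5 to 73.9) at 2 weeks. Both intervals of Spint1 reached its Confetti levels, whereas male macrophages of 2 weeks had 74.2 CPM (50.4 to 105).

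Cycling genes were found in 1 of 30 female (3.33%, 0.0844% to 17.2%) and 16 of 50 male macrophages (32%, 19.5% to 46.7%) of these libraries at 2 weeks, with median depths of 5346 and 7942 UMIs. After thinning the counts were 1 of 30 (3.33%) and 11 of 50 (22%), and at 4 days 0 of 18 and 0 of 13. Only macrophages with UMIs of Xist alone or of Y-linked genes alone were sexed, which depends on depth, and thinning came after sexing. Of the 44 RFP and 75 YFP macrophages of 2 weeks, 15 and 15 were female and 20 and 30 male. Cycling macrophages, sexed or not, numbered 8 and 16. Cells of 2 libraries are no replicates of a sex, and no test was made.

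Without both replicate 2 libraries of 2 weeks, an alternative chosen after the data were seen, 14 genes passed in Red2Kras against Confetti, 8 of them shared with the 11. Of the 11, Phlda3 (adjusted p = 0.055), Spint1 (0.070) and Eif2s3y (0.142) then missed the threshold (edgeR). In 2 weeks against Confetti 15 genes passed, 7 of them shared with the 18, among them Crip1, Anxa1, Ccl17, Gm47283, Lyz1 and Ddx3y. The remaining 11 of the 18, which include Krt79 (adjusted p = 0.062), Msr1 (0.065), Sema4b (0.061), Tns1 (0.068) and Apoc1 (0.069), missed it at up to 0.150, and Mmp12 passed (adjusted p = 0.0073).

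RFP and YFP libraries of a replicate number may share lungs, and the fits above treat them as separate. Summing them leaves 1 Confetti sample, so the spread comes from Red2Kras alone and no call is read from that fit. Whether the calls hold with lungs as the unit was therefore not decided. In Red2Kras against Confetti the summed log2 fold changes were -2.42 for Crip1, -2.71 for Apoc1, -4.60 for Lyz1 and -2.87 for Gm47283. They were -2.27 for Sema4b, -1.56 for Phlda3, -1.53 for Tns1, 4.96 for Msr1 and 2.16 for Spint1. In 2 weeks against Confetti they were -2.63 for Crip1, -3.03 for Apoc1 and 1.65 for Anxa1.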

How the data were processed

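The authors aligned 10x libraries to GRCm38 with Cell Ranger (3.1.0 in the submitters' processing notes, 5.0.1 in the file headers) and deposited UMI count matrices, which are raw counts per gene and barcode and include non-coding genes such as Xist. Per the methods, empty droplets had been removed. The chemistry version differs between the labels and the methods.

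From these counts, alveolar macrophages were selected by the stated rule, with no doublet caller, and their UMIs were summed per library. Libraries with at least 20 macrophages (9 of 10) were fitted with edgeR 4.0.16 (R 4.3.3; TMM, filterByExpr, mitochondrial genes dropped) with condition and colour as terms, leaving 5 residual degrees of freedom. The 9 rule genes were left out of calls. Shares were compared with exact permutation tests (scipy 1.17.1), and alternatives included DESeq2 1.42.0, other cutoffs and each library left out. Named genes had to pass adjusted p 0.05, reach 50 CPM and be 2 times their epithelial level, up to 12 per direction, plus members of the gene lists. The members and lists were chosen with earlier results of these data known. Replicates differed by more than sampling noise (chi-square per degree of freedom 6.16 to 14.0). On simulated data for 2 weeks against 4 days, 94% of 4-fold and 30% of 2-fold changes were recovered, and for Red2Kras against Confetti 80% and 14%. In each simulation 200 of 4811 genes were changed. False calls, beside the changes recovered, numbered 3 between times and 10 for Red2Kras against Confetti. That comparison called 11 genes in the data. The simulated libraries were drawn independently and held planted changes, so these counts do not give the number of false calls among the 11. Some results are not reported here.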

Additional observations from a re-analysis of the deposited data

Results flagged for a closer look

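Of 38 groups of 4 libraries examined, 3 had a library far from the other members of its group, and chance alone marks about 1 group in 20. Apoc1 in the 2 weeks group was at 70.0 CPM in the YFP replicate 1 library, with the nearest at 15.7 CPM. Lyz1 was at 142 CPM in that same library, with the nearest at 26.2 CPM. Epcam was at 125 CPM in the 2 weeks RFP replicate 2 library, with the nearest at 63.4 CPM.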

How the results depend on the processing

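The Confetti comparisons rest on 2 libraries, all female and possibly of the same lungs, and 77 macrophages. The level of Msr1 in Confetti rests on 1 UMI. Counts of genes are given in the order Red2Kras, 2 weeks and 4 days against Confetti, 2 weeks against 4 days, and RFP against YFP. DESeq2 gave 24, 37, 7, 2 and 0, no filter on low counts gave 147, 150, 106, 55 and 29, and 6 groups as coefficients gave 0, 0, 0, 1 and 0. The replicate block gave 97, 190, 15, 23 and 0, but the labels do not say that a number marks shared lungs. Deviations of RFP and YFP libraries with the same number correlated at 0.342 (4 days) and 0.468 (2 weeks), and across times at 0.0362 and 0.17. Requiring at least 5 macrophage genes gave 5 for Red2Kras. At least 3 genes gave 2 at 4 days, 1 between times and 1 between colours. Without macrophages holding 2 epithelial genes the counts were 39 at 2 weeks, 3 at 4 days and 1 between times. A minimum of 50 macrophages per library left 1 library of 4 days, so no count is given for it. Sums per replicate number gave 8 between times and leave 1 Confetti sample, so no count against Confetti is given. Without both replicate 2 libraries of 2 weeks (chosen after seeing the data, as was a minimum of 10 macrophages) there were 13 at 4 days, 7 between times and 2 between colours. That setting turned the share difference between times to -0.142 points, and leaving out the 2 weeks YFP replicate 2 library turned that between colours to 2.69 points. Thinning moved cycling to 11.6% (RFP) and 10.6% (YFP) in the replicate 2 libraries of 2 weeks. Leaving out each library gave 0 to 66, 0 to 61, 0 to 39, 0 to 19 and 0 to 7 genes, and share differences of 2.44 to 7.26, 4.38 to 15.4 and -6.60 to 2.69 points. Without the 2 weeks RFP replicate 2 library, 5 genes passed in each of the first and second comparison. Over the named genes, 466 values kept their side of the threshold, 195 lost it and 40 gained it, and none (0) changed direction. Causes were not tested.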

Other observations

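Immediate-early genes, which many stimuli and tissue dissociation induce within minutes, gave no call among 16 tested in Red2Kras against Confetti (0 higher, 0 lower), with 12 positive and a median log2 fold change of 0.66. Fos, an AP-1 subunit, was at 505 and 446 CPM in Confetti, at 569, 1174, 719 and 1150.0 CPM at 4 days and at 1380.5, 1227, 1487 and 903 CPM at 2 weeks (RFP replicates 1 and 2, then YFP), with an adjusted p of 0.072 (edgeR) for 2 weeks against Confetti. All Red2Kras libraries were above Confetti. Antioxidant and iron genes gave no call among 17 tested (4 positive, 13 negative, median -0.17), and glycolysis and hypoxia genes none (0) among 12 (9 positive, median 0.29). Gdf15, a stress-induced cytokine, was at 869 and 1000.5 CPM in Confetti and between 329 and 739 CPM in Red2Kras, with no overlap (log2 -0.83, adjusted p = 0.23, edgeR).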
